A study of Homo sapiens with 4 samples.

Results

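Tissue kallikreins are secreted serine proteases that are made as inactive precursors and switched on when another protease removes a short propeptide. In squamous epithelium several of them act as a cascade at the cell surface, where they cut the proteins that hold cornified cells together, and inhibitors of the SPINK family and other serine protease inhibitors keep them in check. They are encoded side by side in one locus on chromosome 19, and KLK5 to KLK14 are the members that lie together on one side of KLK4. These 10 genes, KLK5, KLK6, KLK7, KLK8, KLK9, KLK10, KLK11, KLK12, KLK13 and KLK14, were taken by symbol from 33458 genes on the array, 1 transcript cluster per gene. Each of them has 1 transcript cluster, so no choice between clusters was needed.

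The study placed C6orf141, an open reading frame of chromosome 6, in SAS cells, a line of human tongue squamous carcinoma, and measured RNA on Clariom D arrays, which carry probes for coding and non-coding transcripts. There were 2 arrays of control cells, which the labels call scrambled controls, and 2 arrays of C6orf141 overexpression cells. The methods describe stable overexpression cells, which received a pLVX-IRES-Neo vector with the full-length gene for 48 h. Those cells were selected with G418 at 1200 µg/mL for 14 days. For other assays the paper also used SAS cells transfected with the gene or with vector, and transiently transfected cells for Western blots. The array methods name only SAS cells with C6orf141 overexpression. They do not say whether these were the stable or the transiently transfected cells. The sources do not say whether the control cells of the arrays carried an empty vector or were selected too, nor whether the stable cells were 1 clone or a pool. Nothing states that same-group arrays were hybridised with RNA of separate cultures, so every p-value reflects array-to-array spread alone, and this could be technical.

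Values are the deposited log2 signals. A difference of 1 between arrays is a 2-fold difference, and signals of different probes share no common scale, so the order of 2 genes by signal is no order of their transcript numbers. A gene was called above background where its mean signal passed 5.81, the 95th percentile of the mean signals of 400 olfactory receptor genes, and 16146 of 33458 genes, or 48.3%, did so. As a stricter mark, the 95th percentile of 612 negative control rows lay between 7.64 and 7.72 on the 4 arrays. The groups were compared with limma. C6orf141 itself had log2 signals of 8.57 and 7.92 in control cells against 11.36 and 12.04 in overexpression cells, in the direction the labels give. The difference was 3.46 (SE 0.32, unadjusted p = 6.4e-06 and adjusted p = 0.214 in limma). In fold terms this is 11.0-fold, with a 95% interval from 6.52 to 18.5. The 2 control arrays were less alike than the 2 overexpression arrays. Between control arrays 1 and 2, 433 of the 16146 genes above background, or 2.68%, differed by over 2-fold, against 43 between the overexpression arrays. The line carried an epithelial profile, with all 7 measured epithelial markers and all 5 measured basal squamous markers above background. Markers of endothelium (0 of 5) and melanocytes (0 of 3) were not above it, while 2 of 6 fibroblast markers, COL1A1 and COL1A2, and 2 of 6 leukocyte markers, CD3E and CD68, were. COL1A2 and CD3E, with means of 6.93 and 5.87, were below the negative control mark. CD3E was also below the background level on control array 1, with 5.41. COL1A1 and CD68, with means of 9.09 and 10.65, were above both.

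Of the 10 kallikreins, 5 were above background, KLK5, KLK6, KLK7, KLK8 and KLK10, and all 5 were also above the negative control mark on every one of the 4 arrays. KLK9, KLK11, KLK12, KLK13 and KLK14 were below the background level on every array. Along the chromosome, in RefSeq order, KLK5, KLK6, KLK7 and KLK8 follow each other, KLK9 stands between KLK8 and KLK10, and KLK11 to KLK14 close the row. The genes above background thus formed 1 run of 4 neighbours plus KLK10, with KLK9 as the gap. The next gene on the KLK14 side, CTU1, had a mean log2 signal of 5.96. The share of kallikreins above background, 5 of 10, was close to that of all genes.

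**Figure D1:**
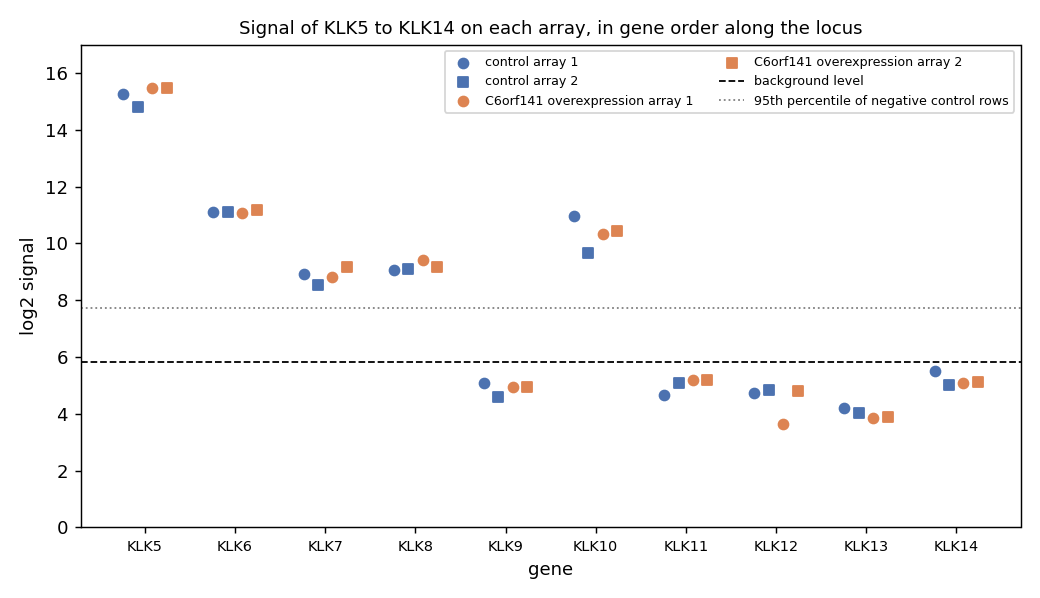
Log2 signal (y axis) of KLK5 to KLK14 (x axis, in chromosomal order) on each of the 4 arrays. Each point is 1 array, the dashed line is the background level of 5.81 and the dotted line is the negative control mark of 7.72. KLK5 to KLK8 and KLK10 lie above both lines on all arrays, and the other 5 genes lie below both.

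The promoter windows of neighbours in this row are shown because KLK5, KLK6 and KLK10 were above background and KLK9 was not. They come from RefSeq (GRCh38.p14), run from 250 bases before to 50 bases after the start of the gene, and are printed 5′ to 3′ on the minus strand of the chromosome. Capitals mark GC boxes (GGGCGG or its reverse complement CCGCCC, the core to which SP1 family factors bind).
KLK5, chr19:50952989-50953288: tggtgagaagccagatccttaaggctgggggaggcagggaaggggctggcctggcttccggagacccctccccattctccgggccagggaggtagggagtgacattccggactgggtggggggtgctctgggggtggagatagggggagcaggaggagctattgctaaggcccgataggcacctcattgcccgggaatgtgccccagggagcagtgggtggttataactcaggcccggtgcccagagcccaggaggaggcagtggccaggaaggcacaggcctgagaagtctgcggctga
KLK6, chr19:50969542-50969841: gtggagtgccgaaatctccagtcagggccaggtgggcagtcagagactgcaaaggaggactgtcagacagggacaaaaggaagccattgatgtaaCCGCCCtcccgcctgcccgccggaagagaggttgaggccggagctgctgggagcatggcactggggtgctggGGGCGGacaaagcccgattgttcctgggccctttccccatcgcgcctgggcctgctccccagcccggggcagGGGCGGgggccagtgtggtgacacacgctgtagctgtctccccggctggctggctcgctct
KLK9, chr19:51009543-51009842: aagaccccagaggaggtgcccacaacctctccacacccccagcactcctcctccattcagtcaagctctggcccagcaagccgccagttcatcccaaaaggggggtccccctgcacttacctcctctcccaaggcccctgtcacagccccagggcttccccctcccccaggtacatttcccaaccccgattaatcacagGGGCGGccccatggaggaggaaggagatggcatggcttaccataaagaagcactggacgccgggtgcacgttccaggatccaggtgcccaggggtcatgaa
KLK10, chr19:51019660-51019959: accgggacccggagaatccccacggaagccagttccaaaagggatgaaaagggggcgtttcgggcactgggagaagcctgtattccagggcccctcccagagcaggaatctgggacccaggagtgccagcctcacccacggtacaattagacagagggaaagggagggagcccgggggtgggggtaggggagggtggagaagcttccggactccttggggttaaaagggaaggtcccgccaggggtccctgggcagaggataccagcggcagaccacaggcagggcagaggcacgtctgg

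Windows were found for 9 of the 10 kallikreins, 16 in all. They were searched on both strands for the TATA box (TATAAA), the GC box, a site of AP-1 factors (TGACTCA) and a site of grainyhead factors (AACCGGTT). The KLK6 window printed above has 3 GC boxes, of which the nearest begins 11 bases before the start. The KLK9 window has 1, which begins 51 bases before the start, while those of KLK5 and KLK10 have none. A GC box stood in 10 of the 16 windows, and 44.9% of 34943 promoter windows hold one. Windows of KLK7, of KLK13 and of KLK14 overlap and share boxes, so the 10 are not separate promoters. Counted by gene, with 1 to 3 windows each, 2 of the 4 kallikreins above background that have a window and 4 of the 5 below it had a GC box in any of them. None of the 16 windows held the TATA box, the AP-1 site or the grainyhead site, which 11.6%, 4.96% and 0.132% of all windows hold. The number of CG dinucleotides was 7 in the KLK5 window, 15 for KLK6, 6 for KLK9 and 11 for the printed KLK10 window, against a median of 14 over all windows. The GC box thus did not separate the kallikreins above background from those below it. The other sites, searched as exact letters, stood in no window and so could not separate any. KLK8, which was above background, had no window and was not covered.

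The comparison between control and C6orf141 overexpression cells asked which kallikrein signals differed once C6orf141 was raised. Of the 10 kallikreins, 0 passed an adjusted p below 0.05 in limma (Benjamini-Hochberg), as 0% of all 33458 genes did, and 0 passed an unadjusted p below 0.05, which 2.11% of all genes and 0.898% of those above background did. Over the 10 genes the log2 difference ranged from −0.55 to 0.44, with 6 above and 4 below zero and a median of 0.08, which was −0.08 without control replicate 2. The median of the 5 above background was 0.20. Over all genes the median was −0.00036. The overexpression arrays did not overlap the control arrays for 4 of the 10, KLK5, KLK8, KLK11 and KLK13, against 29.4% of all genes, and the last 2 of these were below background. Among the 5 above background 2 did not overlap, against 27.6% of such genes. RNA came from whole cultures, so a change in the number of expressing cells and a change in RNA per cell cannot be told apart.

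KLK5, KLK7 and KLK14 are the desquamation proteases, and KLK5 activates both itself and other kallikreins. KLK5 had log2 signals of 15.26 and 14.79 in control cells against 15.46 and 15.48 in overexpression cells. Both overexpression arrays lay above both controls, by less over control array 1 than over control array 2. The means were 15.02 ± 0.33 (SD, n = 2) and 15.47 ± 0.01 (SD, n = 2), a difference of 0.44 (SE 0.25, unadjusted p = 0.115 and adjusted p = 1 in limma). In fold terms this is 1.36-fold, with a 95% interval from 0.911 to 2.03. Among genes above background the overexpression arrays were both higher than both controls in 12.6%, where 2 of the 5 kallikreins, KLK5 and KLK8, were so. With trend and robust settings, KLK5 was the one of these 5 with an unadjusted p below 0.05 in limma, at 0.0301. Over all 33458 genes, 327 were higher and 358 lower at that threshold with these settings. The difference of KLK5 was 0.68 without control replicate 1 and 0.21 without control replicate 2. KLK10, described below, also depended on which control array was left out.

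KLK7, which is chymotrypsin-like and cuts corneodesmosin and desmocollin 1, had 8.91 and 8.52 in control cells against 8.83 and 9.18 in overexpression cells. The groups overlapped, since control array 1 lay above overexpression array 1. The difference was 0.29 (SE 0.26, unadjusted p = 0.294 in limma), or 1.22-fold with a 95% interval from 0.808 to 1.85. With 1 array left out it ranged from 0.09, without control replicate 2, to 0.49, without control replicate 1. KLK14, a trypsin-like protease that can cleave the receptor PAR2, had 5.52 and 5.03 in control cells against 5.09 and 5.11 in overexpression cells. All 4 values are below the background level, so its difference of −0.18 carries no direction of expression. KLK5 and KLK7 were therefore measurable in these cells and KLK14 was not.

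KLK6 and KLK8, also named neurosin and neuropsin, are trypsin-like and are made in brain as well as in epithelium. KLK6 had 11.12 and 11.11 in control cells against 11.06 and 11.16 in overexpression cells. Among the kallikreins above background it had the difference nearest to 0, −0.01 (SE 0.22, unadjusted p = 0.969 in limma). The 95% interval ran from 0.697-fold to 1.42-fold, so changes within those bounds were not excluded with 4 arrays. The SDs of KLK6 were 0.0011 in control and 0.07 in overexpression cells. The width of its interval thus came mostly from the variance that limma shares over all rows. KLK8 had 9.06 and 9.10 in control cells against 9.41 and 9.16 in overexpression cells, without overlap. Its difference was 0.20 (SE 0.23, unadjusted p = 0.401 in limma), or 1.15-fold with a 95% interval from 0.797 to 1.66. It was 0.08 without overexpression replicate 1 and 0.33 without overexpression replicate 2. In RefSeq a non-coding gene, LOC105372442, overlaps KLK5 and KLK6, and its part in their signals was not tested.

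KLK10, first described as a gene of normal epithelial cells that is lost in tumour lines, had log2 signals of 10.98 and 9.66 in control cells against 10.32 and 10.45 in overexpression cells. The control arrays were the highest and the lowest of the 4, and both overexpression arrays lay between them. The means were 10.32 ± 0.93 (SD, n = 2) and 10.38 ± 0.09 (SD, n = 2), a difference of 0.06 (SE 0.40, unadjusted p = 0.876 in limma), with a 95% interval from 0.549-fold to 1.99-fold. The result turned on which control array was used. Without control replicate 1 the difference was 0.72, and without control replicate 2 it was −0.59.

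**Figure D2:**
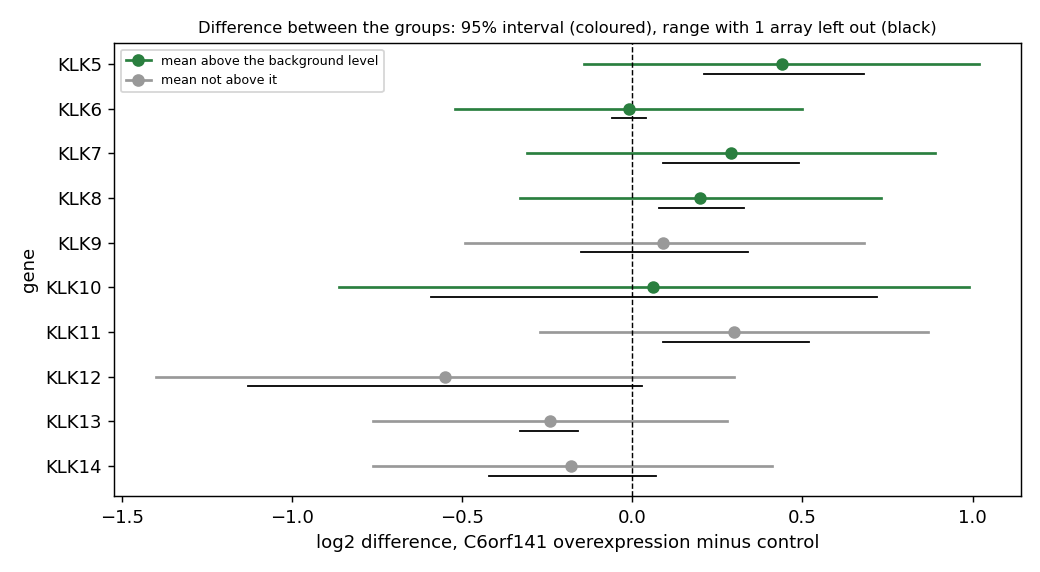
Log2 difference between C6orf141 overexpression and control (x axis) for each kallikrein (y axis), with the 95% interval from limma as a coloured line and the range with 1 array left out as a black line. Green genes have a mean above the background level and grey genes do not. Every interval includes 0, and the black line is longest for KLK10 (−0.59 to 0.72) and KLK12 (−1.13 to 0.03).

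The remaining 4 kallikreins were below background. KLK9, the other chymotrypsin-like member, had 5.08 and 4.59 in control cells against 4.93 on both overexpression arrays. KLK11, which is trypsin-like, had 4.67 and 5.10 in control cells against 5.19 on both overexpression arrays. KLK13, a trypsin-like protease, had 4.20 and 4.03 in control cells against 3.86 and 3.89 in overexpression cells. All of these values lie below the background level. KLK12, also trypsin-like, had 4.74 and 4.83 in control cells against 3.65 and 4.81 in overexpression cells. Only overexpression array 1 stood apart for it. The difference of KLK12, −0.55 (SE 0.37), went to 0.03 without that array and to −1.13 without overexpression replicate 2. No direction of expression is given for these 4 genes.

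Within the groups, KLK10 differed by 2.49-fold between the control arrays, the 1 of the 5 kallikreins above background that passed 2-fold, where 2.68% of all such genes did. Its control pair difference of 1.32 was larger than that of 99.3% of genes above background. KLK5 and KLK7 were also lower on control array 2, by 0.47 and 0.40 on the log2 scale, larger than 74.8% and 66.8% of genes. KLK6 and KLK8 differed between the control arrays by 0.0015 and 0.03. Control array 2 was thus low for 3 of the 5 and level for the other 2. By sign alone it was the lower array for 4 of the 5, and for 9181 of the 16146 genes above background. Between the overexpression arrays the 5 genes differed by at most 0.35, for KLK7, and KLK10 differed by 0.13. Of the 7 epithelial markers, 4 were lower and 3 were higher on control array 2. They ran from CDH1, lower there by 0.81 on the log2 scale, to KRT18, which was higher there. For KRT18, control array 1 minus control array 2 was −0.58. PRSS8, which encodes the epithelial protease prostasin, differed most of the proteases listed beside the kallikreins, with 12.99 on control array 1 and 10.91 on control array 2. The part of control array 2 in the kallikrein differences was not tested beyond leaving it out.

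**Figure D3:**
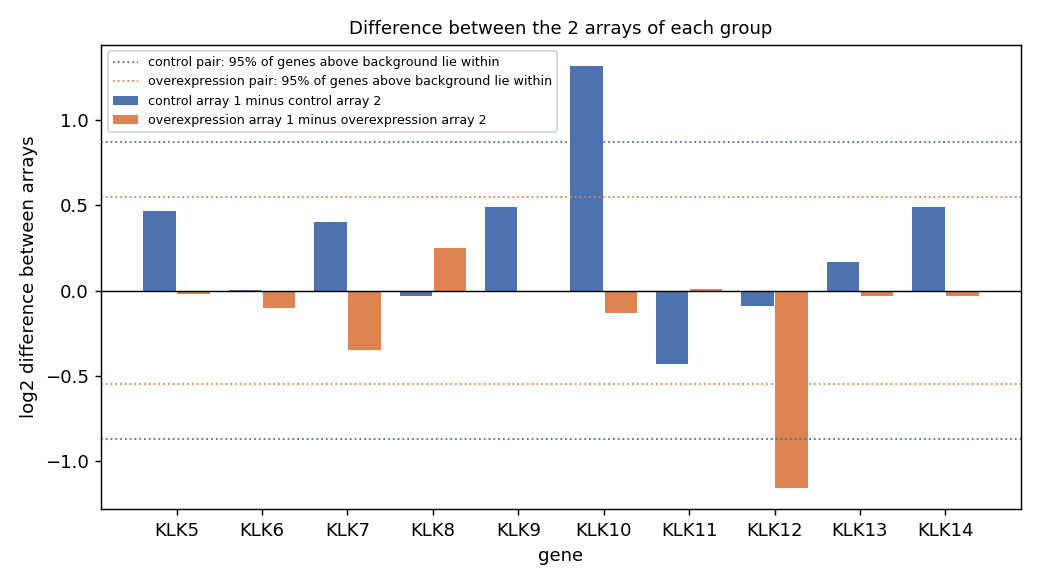
Log2 difference between the 2 arrays of each group (y axis, array 1 minus array 2) for each kallikrein (x axis), with blue bars for control and orange bars for C6orf141 overexpression. Dotted lines mark 0.87 and 0.55 in either direction, within which 95% of the genes above background lie for the control and the overexpression pair. Among genes above background only KLK10 passes its line, with 1.32, and the orange bar of KLK12 belongs to a gene below background.

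The 5 other kallikreins of the locus were also measured. KLK1 and KLK4, a protease of enamel, were below background with mean log2 signals of 3.40 and 5.04, and so was KLK2 with 5.65. KLK3, which encodes prostate-specific antigen, had a mean of 7.13, above the background level but below the negative control mark. KLK15 had 8.59 and 8.71 in control cells against 8.61 and 9.19 in overexpression cells, a difference of 0.25 that became −0.04 without overexpression replicate 2 and 0.54 without overexpression replicate 1. KLK2 and KLK3 are close copies of each other, and their probes may not separate them fully. None of the 5 passed an unadjusted p below 0.05 in limma, and their median difference was −0.12, or 0.06 without control replicate 2.

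Of the inhibitors, SLPI, which inhibits KLK7, had 11.56 and 11.52 in control cells against 11.75 and 11.58 in overexpression cells. PI3, which encodes elafin, had 10.97 and 10.61 in control cells against 10.92 and 10.98 in overexpression cells. These 2 were the only ones of the 7 measured inhibitor genes above background. SPINK6, SPINK7 and SPINK9, whose products include kallikrein inhibitors of the skin, had means of 4.48, 3.70 and 5.30, SERPINA12, which encodes the KLK7 inhibitor vaspin, had 3.31, and A2ML1 had 5.42. SPINK5 and SERPINB6 were not analysed here. None of the 7 passed an unadjusted p below 0.05 in limma.

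Among proteases that act beside the kallikreins, ST14, which encodes matriptase, an activator of prokallikreins, had 13.57 and 13.18 in control cells against 13.49 and 13.51 in overexpression cells. PRSS8, which encodes prostasin, had 12.54 and 12.56 on the overexpression arrays, between its control values of 12.99 and 10.91. Its difference of 0.60 had an unadjusted p of 0.323 in limma, and was 1.64 without control replicate 1 and −0.44 without control replicate 2. TMPRSS11E and PRSS3, which encodes mesotrypsin, had means of 11.24 and 11.22. TMPRSS13, TMPRSS11D, MEP1A and MEP1B were below background, and 0 of the 8 genes passed an unadjusted p below 0.05 in limma.

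Among the substrates, DSG1 and DSC1, desmosomal cadherins of the upper epidermis, had means of 5.10 and 4.05, and CDSN, which encodes corneodesmosin, had 5.76, so the means of all 3 corneodesmosome genes were below background. FLG and CAMP, which encode filaggrin and cathelicidin, were below it too, with 4.32 and 3.94. Of the protease-activated receptors, F2R had a mean of 6.74 and F2RL3 7.71, and F2RL1 was not analysed here. FLG was the 1 of the 7 that passed an unadjusted p below 0.05 in limma, which 2.11% of all genes did, with 3.68 and 4.30 in control cells against 4.49 and 4.83 in overexpression cells, all below the background level.

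**Figure D4:**
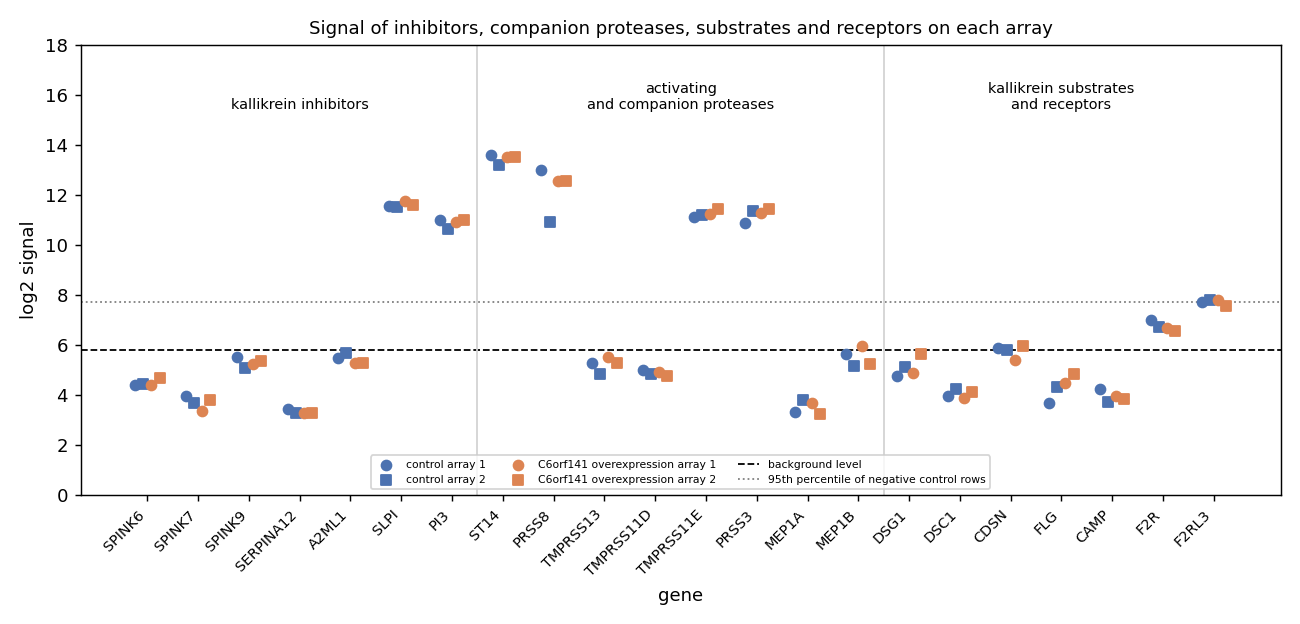
Log2 signal (y axis) of kallikrein inhibitors, activating and companion proteases, and substrates and receptors (x axis) on each of the 4 arrays, with the background level of 5.81 dashed and the negative control mark of 7.72 dotted. SLPI, PI3, ST14, PRSS8, TMPRSS11E and PRSS3 lie above both lines, the 3 corneodesmosome genes DSG1, DSC1 and CDSN have means below the background level, and control array 2 stands apart for PRSS8.

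Of the genes of keratinocyte differentiation, the programme during which kallikreins are made in normal squamous epithelium, 7 of 24 were above background. IVL, LORICRIN and TGM1, which build the cornified envelope, had means of 4.47, 4.56 and 4.14. KRT4, a keratin of oral mucosa, had 9.55 and 9.44 in control cells against 9.80 and 9.68 in overexpression cells, GRHL1 and GRHL3 had means of 8.23 and 7.74, and CNFN 6.38. OVOL1 had a mean of 6.69. Of the 24, 2 passed an unadjusted p below 0.05 in limma, against 2.11% of all genes. These were FLG and KRT1, both below background. The median difference of the 24 was 0.10, and it was 0.18 without control replicate 1 and 0.01 without overexpression replicate 2.

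Among the basal markers, the keratin KRT5 had 14.27 and 13.75 in control cells against 14.14 and 14.27 in overexpression cells. KRT14, its usual partner, had 7.45 and 7.15 in control cells against 7.37 and 7.20 in overexpression cells, below the negative control mark on every array. ITGB4 differed by 0.35, or −0.01 without control replicate 2, and ITGA6 by −0.13. Of the 7 epithelial markers, those with the largest differences were CLDN4 with 0.43, KRT19 with 0.36 and CDH1 with 0.33. Without control replicate 2 these were 0.14, 0.36 and −0.08. Over the 7 markers the difference ranged from −0.06 to 0.43, with a median of 0.16. Of the 7, 0 passed an unadjusted p below 0.05 in limma. KRT8, a keratin of simple epithelium, had a mean of 16.48.

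The median profile of the 5 kallikreins above background, each centred on its mean, was 0.01 and −0.34 in control cells against −0.03 and 0.10 in overexpression cells. The 5 genes nearest to it among 16141 were RPUSD3, TRAPPC4, TYSND1, AQP7P4 and SLC2A9, at log2 distances from 0.132 to 0.134. TRAPPC4, for example, had 11.75 and 11.41 in control cells against 11.72 and 11.85 in overexpression cells. With 4 arrays such closeness is common, and 778 genes lay within 0.2.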

How the data were processed

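The authors deposited 1 gene-level log2 value per transcript cluster and array, which the labels credit to Expression Console. The methods name Partek for the search for differentially expressed genes. How probes were summarised and normalised, and with which software versions, is not stated in the labels or methods. The number of arrays limits the precision. Control rows (2995 of 138745) were left out. Symbols came from the platform annotation, 25516 of 36176 rows with 1 symbol matched RefSeq by gene number and 623 older symbols were updated. The row with the highest mean stood for a gene. Arrays were compared without further normalization with the moderated two-sided test of limma (lmFit, then eBayes; version 3.58.1, R 4.3.3) over all 135750 other rows, with Benjamini-Hochberg adjustment over 33458 genes and a threshold of 0.05. An exact permutation test of 2 against 2 arrays cannot go below p = 0.333. The steps were tested on simulated data.

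The kallikreins and the gene lists were chosen with earlier results of these data known, so no list was tested as a set. The named genes were the 15 kallikreins, C6orf141, from each other list up to 3 genes above background with the largest differences, known inhibitors, activators and substrates, and the 5 nearest profiles. Other genes named (CTU1, KRT1, KRT8, KRT14, KRT18, IVL, LORICRIN, TGM1, GRHL1 and GRHL3) were chosen after their values were seen. Alternatives were another normalization, centring, variance model, test, row choice, filter, a replicate block and each array left out.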

Additional observations from a re-analysis of the deposited data

How the results depend on the processing

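With 1 array left out, the number of kallikreins at an unadjusted p below 0.05 in limma ranged from 0 to 2, KLK5 and KLK10 without control replicate 1 and KLK12 without C6orf141 overexpression replicate 2. Trend and robust settings gave 1, KLK5. The median difference of the 10 ranged from −0.08, without control replicate 2, to 0.14, without control replicate 1, and was 0.20 over the 5 above background. Signs turned for KLK6, to 0.00034 after quantile normalization and from −0.06 to 0.04 with 1 array left out, and, with 1 array left out, for KLK9 (−0.15 to 0.34), KLK10 (−0.59 to 0.72, and −0.0023 without C6orf141 overexpression replicate 2), KLK12 (−1.13 to 0.03) and KLK14 (−0.42 to 0.07). KLK5, KLK7, KLK8, KLK11 and KLK13 kept their sign under every alternative run on them. The cause was not tested.

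Over all genes, 0 passed an adjusted p below 0.05 in limma, and trend and robust settings, the replicate block and crossed pairs, an alternative chosen after seeing the data, each gave 1, C6orf141. At an unadjusted p below 0.05 there were 348 higher and 358 lower genes, 654 and 710 with Student's t-test, which the methods name for other data, 67 and 78 among the 16146 genes above background, 2566 and 2913 over all 135750 rows, 209 to 925 higher and 244 to 668 lower with 1 array left out. Same-numbered arrays did not deviate together. The correlation of their deviations was −0.112 across all genes and −0.271 across the 16146 above background, and genes are not independent replicates. With the replicate block 299 genes were higher and 326 lower. It changed no call of a kallikrein. The log2 difference of C6orf141 lay between 3.12 and 3.80.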
